A study of Homo sapiens with 48 samples.

Results

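The 40 genes described here belong to the cellular response to low oxygen and to glycolysis, and they were read as rows of the deposited count table, which holds 27978 gene symbols. They were chosen by symbol from general knowledge of these pathways, with earlier results of these data known. All 40 were found and passed the filter on low counts. By role they comprise 4 genes of oxygen sensing, 3 transporters, 17 glycolytic enzymes, 4 regulatory kinases at glycolytic switch points and 12 other hypoxia-linked genes. When oxygen is scarce, the prolyl hydroxylases of the EGLN family no longer mark the HIF alpha subunits (HIF1A, EPAS1) for destruction, and HIF dimers bind the core motif RCGTG near their target genes. The targets bring glucose into the cell, break it down to lactate, divert pyruvate from the mitochondria, buffer acid and promote vessel growth. Many cancer cells run this programme with oxygen present, and growth factor signalling through EGFR also feeds glycolysis and HIF.

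Cells of H1975, an established line from a lung tumour of the non-small cell type with a mutated EGFR, received gefitinib, an inhibitor of the EGFR kinase, at 50 or 75 µM, compound kushen injection (CKI) at 1 or 2 mg/mL, the preparation named in the labels only as YFSJ at 2.5 or 5 mg/mL, or gefitinib at either dose together with a dose of CKI or of YFSJ. Untreated cells were sampled at 24 h and at 0 h, which makes 16 groups of 3 libraries, 48 in all, called biological replicates by the submitters. All groups used this 1 line in medium with serum, and the labels name no vehicle control and no culture at low oxygen. Treated cells are set against untreated cells at 24 h, and combinations against gefitinib alone at the same dose. In bulk RNA, fewer cells of a kind and less RNA per cell cannot be told apart.

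Libraries held 16428398 to 26264162 counts, and the lowest count of any of the 40 genes in any library was 24, for MIR210HG. The catalogue number in the labels belongs to the breast line MCF-7, whereas 4 of 6 lung epithelial markers reached a median of 1 CPM (counts scaled to library depth), NKX2-1 with a median of 44.7 CPM and EGFR with 96.5 CPM, against 1 of 7 luminal breast markers, with ESR1 at 0.125 CPM and PGR at 0 counts in every library. The breast marker that reached it was GREB1 (7.1 CPM), and the lung markers that did not were SFTPB (0.0431 CPM) and SFTPC (0 CPM). In 10 libraries the liver gene ALB had 2581 to 3557 counts, against at most 8 in the other 38, and 13 of 14 liver markers were higher in each of these 10 than in any other library. All 14 summed to 252 to 343 CPM in these 10 libraries and 44.4 to 96.8 CPM in the rest, where nearly all of it was SERPINA1 (43.7 to 96.2 CPM over all libraries), the marker that did not separate. The 10 are all libraries of YFSJ 2.5 mg/mL and of CKI 2 mg/mL with gefitinib 75 µM, and 2 of 3 in CKI 2 mg/mL with gefitinib 50 µM and in CKI 1 mg/mL with gefitinib 75 µM. The part of these transcripts in the results was not tested beyond a fit with a term for the 10 libraries. That term is estimated only within the groups that hold both kinds of library. In groups made up wholly of ALB-bearing libraries it is carried over, and a call can be lost there through lower precision alone. In the 0 h group libraries 1 and 2 differed from library 3, with 1.22% and 1.69% of counts from the mitochondrial ribosomal transcript RNR2 against 0.457%. Library 2 of YFSJ 2.5 mg/mL with gefitinib 75 µM stood apart from its companions, with 2.18% against 0.811% and 0.957%. Library 3 of YFSJ 5 mg/mL with gefitinib 50 µM differed from its companions in several of the 40 genes, as given with that group.

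Some levels are uncertain because the libraries were unstranded. Exons of ALDOA, GAPDH, P4HA2 and ALDOC share 19.9%, 19%, 14.8% and 14.5% of their bases with a gene on the opposite strand. Pseudogenes of any class named after GAPDH number 62, those of BNIP3 39 and those of PGAM1 13, and reads could have been split between copies.

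The stretch of 250 bases before the start site is shown for 6 genes whose levels moved furthest or moved against their sister isozyme. CA9 makes carbonic anhydrase 9, an acid-handling enzyme of the cell surface. ANGPTL4 makes a secreted inhibitor of lipoprotein lipase. MIR210HG is the host transcript of the hypoxia-linked microRNA miR-210. ENO2, ALDOC and ENO1 make glycolytic enzymes. The sequences are from RefSeq on GRCh38.p14, and capitals mark the motifs ACGTG or GCGTG on either strand.
CA9 (chr9:35673678-35673927, forward strand): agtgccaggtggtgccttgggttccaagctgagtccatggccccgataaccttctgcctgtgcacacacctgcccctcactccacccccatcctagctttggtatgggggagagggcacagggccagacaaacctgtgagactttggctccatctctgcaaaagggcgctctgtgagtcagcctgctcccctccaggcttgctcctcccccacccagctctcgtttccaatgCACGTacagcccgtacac
ANGPTL4 (chr19:8363905-8364154, forward strand): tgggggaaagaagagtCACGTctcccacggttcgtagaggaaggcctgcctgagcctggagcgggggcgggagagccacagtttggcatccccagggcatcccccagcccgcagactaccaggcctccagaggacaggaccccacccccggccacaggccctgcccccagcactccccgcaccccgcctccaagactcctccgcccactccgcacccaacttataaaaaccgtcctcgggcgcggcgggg
MIR210HG (chr11:568458-568707, reverse strand): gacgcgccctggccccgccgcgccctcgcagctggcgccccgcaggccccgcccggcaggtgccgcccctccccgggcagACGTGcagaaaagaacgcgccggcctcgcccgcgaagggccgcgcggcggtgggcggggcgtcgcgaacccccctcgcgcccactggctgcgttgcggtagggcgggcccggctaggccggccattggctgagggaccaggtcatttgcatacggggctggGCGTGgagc
ENO2 (chr12:6914330-6914579, forward strand): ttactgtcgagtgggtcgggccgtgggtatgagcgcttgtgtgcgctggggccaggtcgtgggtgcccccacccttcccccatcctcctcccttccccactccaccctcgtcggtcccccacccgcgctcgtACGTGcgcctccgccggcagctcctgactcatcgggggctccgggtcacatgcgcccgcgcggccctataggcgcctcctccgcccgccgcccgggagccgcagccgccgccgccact
ALDOC (chr17:28576896-28577145, reverse strand): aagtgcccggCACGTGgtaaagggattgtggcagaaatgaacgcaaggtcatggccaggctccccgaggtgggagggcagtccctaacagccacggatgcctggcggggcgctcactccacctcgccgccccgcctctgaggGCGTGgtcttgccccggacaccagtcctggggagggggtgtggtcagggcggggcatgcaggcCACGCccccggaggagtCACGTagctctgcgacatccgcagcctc
ENO1 (chr1:8878687-8878936, reverse strand): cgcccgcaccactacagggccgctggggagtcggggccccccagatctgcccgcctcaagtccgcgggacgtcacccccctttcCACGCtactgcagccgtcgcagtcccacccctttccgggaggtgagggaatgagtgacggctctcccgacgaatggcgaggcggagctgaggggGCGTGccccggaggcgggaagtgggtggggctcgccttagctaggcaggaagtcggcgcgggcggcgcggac
The CA9 window held 1 match, 18 bases before the start site, and the ANGPTL4 window held 1 match, 234 bases before it. ALDOC held 5 matches, of which the pair at its far end overlap in the palindrome CACGTG, ENO1 and MIR210HG held 2 each, and ENO2 held 1. Promoter entries were matched for 36 of the 40 genes, with 64 windows, and 39 of these windows (60.9%) held ACGTG or GCGTG, against 43.2% of all 35116 windows. CACGTG, a letter string that contains ACGTG on both strands and is also the core of the E-box, was in 12.5% of these windows and in 6.34% of all windows. Of the 37 windows of the glycolytic enzymes, 51.4% held ACGTG or GCGTG. A gene could add several windows to these shares, as HK1 and PFKM did with 7 each. These matches describe letters only.

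**Figure D1:**
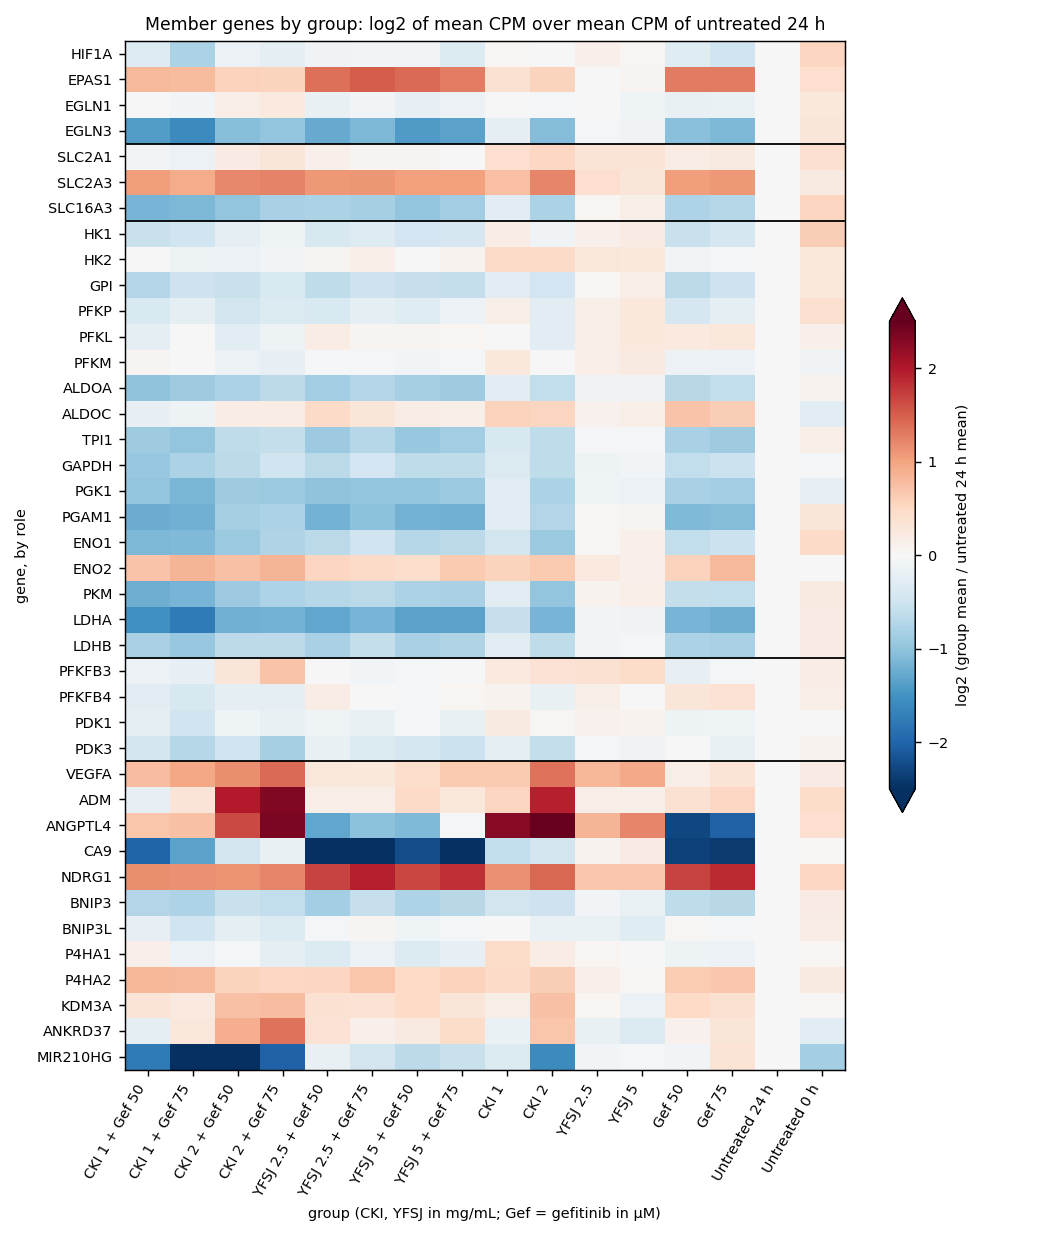
Mean level of each of the 40 genes (rows, by role, with lines between roles) in 16 groups of 3 libraries (columns), as log2 of the group's mean CPM over that of untreated cells at 24 h, with colours saturating at the ends of the scale. In the columns of gefitinib alone most glycolytic enzymes are blue, ENO2 and ALDOC among the exceptions, and EPAS1 and NDRG1 are red, and the ANGPTL4, CA9, ADM and MIR210HG rows vary most.

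ANGPTL4 spanned the widest range over the 16 group means, 28.2-fold, with 130 CPM under CKI 2 mg/mL and 4.62 CPM under gefitinib 50 µM. CA9 followed with 8.75-fold, MIR210HG with 7.78-fold and ADM, the gene of the vessel-dilating peptide adrenomedullin, with 5.72-fold. At the other end, EGLN1, the main oxygen-sensing hydroxylase in most cells, spanned 1.38-fold, with 79.8 CPM under YFSJ 5 mg/mL with gefitinib 50 µM and 110 CPM in untreated cells at 0 h. The plot of group means by gene shows all 40 genes.

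Gefitinib alone lowered most of the glycolytic chain. At 75 µM 11 of the 17 enzymes fell and 2 rose, and at 50 µM 12 fell and 2 rose, by edgeR's quasi-likelihood test with Benjamini-Hochberg adjustment over all 15789 genes tested and called at an adjusted p under 0.05, as throughout. Of all genes tested, 27.1% were called lower at 75 µM and 26.8% at 50 µM. The median log2 fold change of the 17 enzymes was -0.54 at 75 µM and -0.61 at 50 µM, against 0.02 and 0.03 over all genes. Summed over the 17 enzymes, transcripts made up 1.59% ± 0.04 of the scaled counts at 75 µM and 1.54% ± 0.08 at 50 µM, against 2.46% ± 0.14 in untreated cells at 24 h (SD, n = 3 each). Here and below, such sums are taken over totals scaled between libraries, whereas RNR2 shares are taken over raw totals. The scaling factors were 0.9007 to 0.9443 in untreated libraries at 24 h and 0.9758 to 1.0127 at 75 µM, so raw shares would differ less. The RNR2 share was 0.674% to 0.886% of counts in libraries at 75 µM and 0.464% to 0.582% in untreated libraries at 24 h, and its part in the result was not tested. Over all 40 genes, 28 were called at each dose, against 54.7% of all genes at 75 µM and 54.4% at 50 µM.

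LDHA, which turns pyruvate into lactate, had 1174, 1221 and 1099 CPM under gefitinib 75 µM and 1238, 1096 and 1297 CPM under 50 µM, against 2896, 2567 and 2660 CPM in untreated cells at 24 h. Every gefitinib library lay under every untreated one. The fall was 1.22 ± 0.10 on the log2 scale at 75 µM (SE; adjusted p = 1.18e-14, edgeR), or 2.33-fold, and 1.16 ± 0.10 at 50 µM (4.76e-14). PGAM1, the phosphoglycerate mutase, had 276, 258 and 267 CPM at 75 µM and 601, 507 and 587 CPM in untreated cells at 24 h, and fell by 1.08 ± 0.08 (adjusted p = 5.55e-15, edgeR). TPI1, PGK1, LDHB, PKM, ALDOA, GAPDH, ENO1, GPI and HK1 fell by 0.88 to 0.44 on the log2 scale at 75 µM. These cover isomerase, kinase, dehydrogenase and aldolase steps from entry of glucose to lactate. PFKP, 1 of 3 phosphofructokinases, fell by 0.43 at 50 µM and had a log2 fold change of -0.24 at 75 µM, which was not called (adjusted p = 0.062, edgeR). HK2, the hexokinase most often raised in tumours, had 90.4, 94.4 and 103 CPM at 75 µM against 101, 103 and 95.8 CPM in untreated cells, with a log2 fold change of -0.06 ± 0.07 that was not called (adjusted p = 0.50, edgeR).

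The isozymes ENO2 and ALDOC, known from nervous tissue, went the other way from ENO1 and ALDOA, and their full values are given here because their direction was seen to differ. ENO2 had 47.5, 51.1 and 50.6 CPM under gefitinib 75 µM, against 27.2, 26.2 and 32.01 CPM in untreated cells at 24 h, with no overlap, and rose by 0.80 ± 0.13 on the log2 scale (adjusted p = 4.98e-07, edgeR). ALDOC had 75.0, 68.4 and 71.8 CPM at 75 µM, against 49.9, 41.0 and 50.6 CPM, also with no overlap, and rose by 0.60 ± 0.10 (1.9e-06). Per length of transcript, ENO2 made up 1.501% ± 0.09 of the summed ENO1 and ENO2 level at 75 µM and 0.60% ± 0.02 in untreated cells at 24 h, and ALDOC made up 2.82% ± 0.10 and 1.23% ± 0.19 of the aldolase pair (SD, n = 3 each). Both stayed minor forms. LDHA's share of the LDHA and LDHB pair was 62.4% ± 0.7 at 75 µM and 68.8% ± 0.8 in untreated cells.

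**Figure D2:**
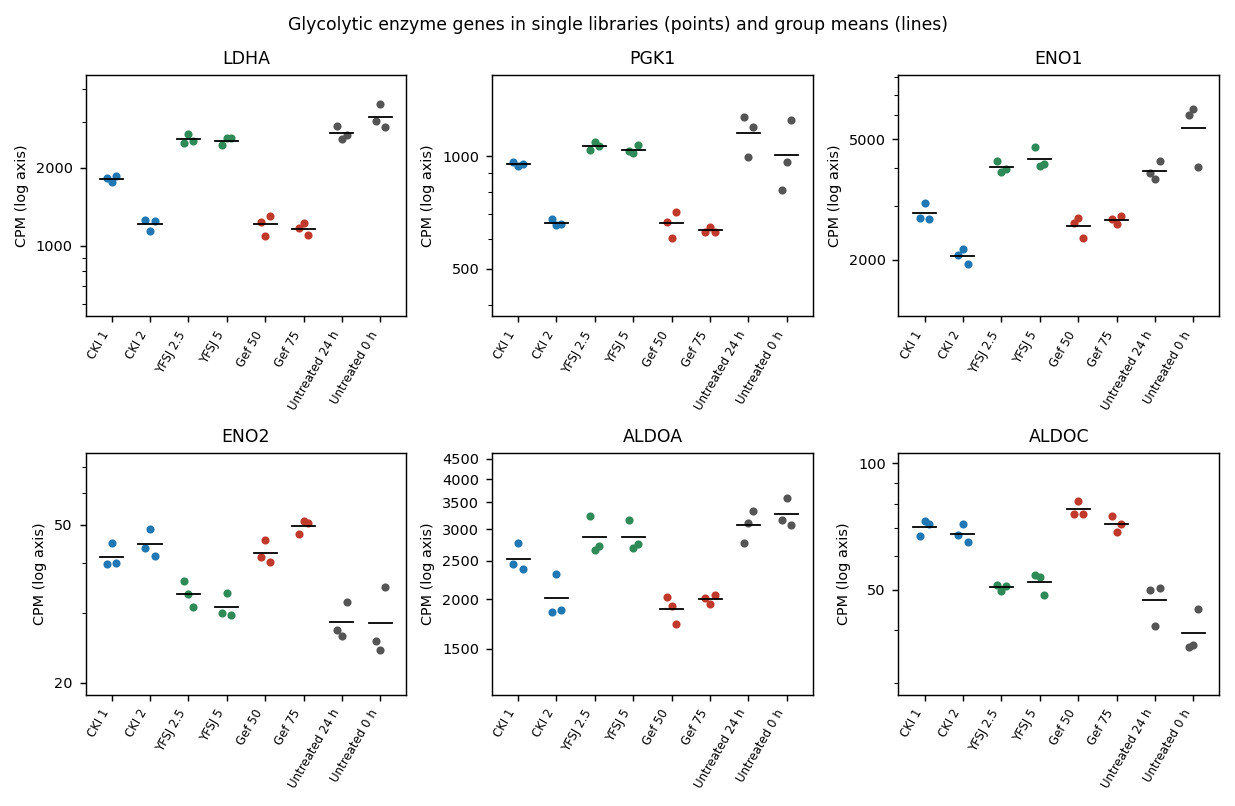
CPM (log axis) of 6 glycolytic enzyme genes in each library (points) and as group means (lines), for the single agents (CKI and YFSJ in mg/mL, Gef for gefitinib in µM) and untreated cells. LDHA, PGK1, ENO1 and ALDOA sit lower under gefitinib and CKI 2 mg/mL than in untreated cells at 24 h, and ENO2 and ALDOC sit higher.

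Among the oxygen-sensing genes, gefitinib raised EPAS1, which codes for HIF-2 alpha. EPAS1 had 314, 325 and 338 CPM at 75 µM and 309, 337 and 326 CPM at 50 µM, against 137, 129 and 130 CPM in untreated cells at 24 h. The rise was 2.47-fold at 75 µM, 1.304 ± 0.10 on the log2 scale (adjusted p = 1.33e-15, edgeR), and as large at 50 µM. HIF1A had 97.1, 102 and 100 CPM at 75 µM and 168, 129 and 129 CPM in untreated cells, with no overlap, and fell by 0.51 ± 0.15 (adjusted p = 0.00478, edgeR). That call was lost without untreated library 1 at 24 h (log2 fold change -0.37, adjusted p = 0.0612, edgeR) and with a correction for GC content (-0.21, adjusted p = 0.102). At 50 µM HIF1A had 104, 106 and 134 CPM, which overlaps the untreated libraries. The EPAS1 share of the HIF1A and EPAS1 level per length was 71.2% ± 0.6 at 75 µM and 41.6% ± 2.9 in untreated cells at 24 h (SD, n = 3 each). EGLN3, a hydroxylase gene that HIF itself induces, had 17.9, 18.7 and 19.3 CPM at 75 µM, against 42.5, 39.6 and 39.3 CPM, and fell by 1.12 ± 0.12 (adjusted p = 1.6e-10, edgeR).

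The transporters and switch kinases did not move as a group. SLC2A3, the high-affinity glucose carrier GLUT3, had 85.7, 91.4 and 88.4 CPM at 75 µM, against 45.3, 40.7 and 39.99 CPM in untreated cells at 24 h, and rose by 1.07 ± 0.08 (adjusted p = 7.07e-16, edgeR). SLC2A1, the general glucose carrier GLUT1, had 294, 281 and 327 CPM at 75 µM, against 249.9, 239.9 and 280.3 CPM. It rose by 0.23 ± 0.08 at 75 µM (adjusted p = 0.0199, edgeR), a call lost with the GC correction (0.06, adjusted p = 0.442) and without untreated library 2 at 24 h (0.18, adjusted p = 0.109), untreated library 1 (0.21, 0.0681) or gefitinib library 3 (0.16, 0.147). SLC16A3, the lactate exporter MCT4, fell by 0.72 at 75 µM and by 0.77 at 50 µM. Of the kinases, PFKFB4, which sets the level of the glycolytic activator fructose-2,6-bisphosphate, rose by 0.36 at 75 µM, with a value of 0.15 after the GC correction (adjusted p = 0.103, edgeR). PDK1, which shuts pyruvate out of the mitochondria, had 20.8, 19.7 and 19.6 CPM at 75 µM and 23.4, 19.3 and 22.1 CPM in untreated cells, groups that overlap, and was not called.

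The other hypoxia-linked genes split. CA9 had 3.14, 2.50 and 2.88 CPM under gefitinib 75 µM and 2.22, 3.46 and 3.15 CPM under 50 µM, against 13.5, 15.01 and 16.3 CPM in untreated cells at 24 h. It fell by 2.39 ± 0.18 on the log2 scale at 75 µM, or 5.24-fold (adjusted p = 1.66e-15, edgeR), the largest change among the 40 genes at that dose. ANGPTL4 had 6.35, 5.52 and 4.67 CPM at 75 µM, against 19.3, 23.1 and 24.6 CPM, and fell by 2.02 ± 0.28 (adjusted p = 1.54e-07, edgeR). In the opposite direction NDRG1, a stress-responsive gene that hypoxia raises in many cell types, had 401, 399 and 430 CPM at 75 µM, against 126, 100 and 113 CPM in untreated cells, and rose by 1.86 ± 0.08 (adjusted p = 7.42e-23, edgeR), or 3.62-fold. None of these 3 genes had overlapping groups. BNIP3, a gene of mitophagy, fell by 0.70 at 75 µM, whereas P4HA2, a collagen prolyl hydroxylase, and KDM3A, a histone demethylase, rose by 0.67 and 0.37, the KDM3A call being lost without untreated library 3 at 24 h (adjusted p = 0.0653, edgeR). VEGFA, the main vessel growth factor, had 97.1, 102 and 115 CPM at 75 µM, against 84.5, 77.7 and 85.9 CPM, and rose by 0.34 ± 0.12 (adjusted p = 0.0153, edgeR). The VEGFA call was lost with the GC correction (0.18, adjusted p = 0.16), without untreated library 2 at 24 h (0.30, 0.0673) and without gefitinib library 3 (0.27, 0.0958). Between 75 and 50 µM, 0 of the 40 genes were called, against 0.0317% of all genes, and 1 had an unadjusted p under 0.05 (NDRG1, 0.0329). DESeq2 gave 0 as well.

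Genes of the same pathways outside the 40 were mixed under gefitinib 75 µM. Of 28 other hypoxia-induced genes measured, 14 rose and 6 fell, against 27.6% of all genes called higher and 27.1% called lower. STC2, a secreted glycoprotein, rose by 2.08 and HMOX1, which degrades heme, by 1.61 on the log2 scale, whereas FAM162A fell by 0.94 and STC1 by 0.87. Of 42 other genes of glycolysis, glycogen and pyruvate use, 15 rose and 17 fell. HKDC1, a hexokinase family member, rose by 2.56, and PDHA1 and DLAT, subunits of pyruvate dehydrogenase, fell by 0.63 and 0.59. Of 9 measured HIF regulators, 4 rose and 0 fell, ARNT2 among them by 1.06.

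CKI alone also lowered most glycolytic enzymes, more at the higher dose, and raised a set of hypoxia-linked genes. At 2 mg/mL 11 of 17 enzymes fell and 3 rose, and at 1 mg/mL 10 fell and 4 rose, against 27.1% and 14.7% of all genes called lower. Over all 40 genes, 31 were called at 2 mg/mL (51.2% of all genes) and 26 at 1 mg/mL (27.9%). Library-size scaling moved the median of all genes by 0.20 at 2 mg/mL and by 0.08 at 1 mg/mL. With it the calls were 16 higher and 15 lower at 2 mg/mL, against 14 and 17, and 16 higher and 7 lower at 1 mg/mL, against 14 and 12. The 17 enzymes summed to 1.47% ± 0.09 of scaled counts at 2 mg/mL and 1.95% ± 0.11 at 1 mg/mL, against 2.46% ± 0.14 in untreated cells at 24 h (SD, n = 3 each). The RNR2 share of the CKI 2 mg/mL libraries was 0.919% to 1.16%, and its part was not tested here either.

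LDHA had 1254, 1140 and 1244 CPM under CKI 2 mg/mL and 1823, 1767 and 1849 CPM under 1 mg/mL, against 2896, 2567 and 2660 CPM in untreated cells at 24 h. The 3 groups did not overlap. It fell by 1.16 ± 0.10 on the log2 scale at 2 mg/mL (adjusted p = 1.24e-13, edgeR) and by 0.58 ± 0.10 at 1 mg/mL (6.06e-06). PKM, the pyruvate kinase, fell by 0.98 and ENO1 by 0.94 at 2 mg/mL. ENO2 and ALDOC rose by 0.65 and 0.53, and HK2 rose by 0.48 ± 0.07 (adjusted p = 1.44e-07, edgeR), with 141, 128 and 149 CPM at 2 mg/mL against 101, 103 and 95.8 CPM in untreated cells.

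ANGPTL4 had 121, 150 and 120 CPM under CKI 2 mg/mL and 108, 121 and 96.6 CPM under 1 mg/mL, against 19.3, 23.1 and 24.6 CPM in untreated cells at 24 h. Every CKI library was above every untreated one. The rise was 2.55 ± 0.24 on the log2 scale at 2 mg/mL (adjusted p = 6.51e-11, edgeR), or 5.85-fold, and 2.28 ± 0.24 at 1 mg/mL (2.67e-09). ADM had 43.1, 31.5 and 39.0 CPM at 2 mg/mL and 15.04, 14.9 and 13.2 CPM at 1 mg/mL, against 7.60, 11.7 and 10.4 CPM. It rose by 1.94 ± 0.15 at 2 mg/mL (adjusted p = 6.06e-15, edgeR) and by 0.55 ± 0.15 at 1 mg/mL (0.00464), the second of which was lost without untreated library 1 at 24 h (0.38, adjusted p = 0.0782). VEGFA had 216, 211 and 209 CPM at 2 mg/mL, against 84.5, 77.7 and 85.9 CPM in untreated cells, and rose by 1.36 ± 0.12 (adjusted p = 1.06e-12, edgeR). NDRG1 rose by 1.44 ± 0.08 (1.7e-18) and SLC2A3 by 1.22 ± 0.08 (4.78e-17).

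MIR210HG had 2.09, 2.53 and 2.52 CPM under CKI 2 mg/mL, against 7.40, 7.54 and 6.67 CPM in untreated cells at 24 h, and fell by 1.59 ± 0.27 (adjusted p = 3.68e-06, edgeR), while at 1 mg/mL its log2 fold change was -0.34 ± 0.24 and was not called. EGLN3 fell by 1.07 ± 0.12 at 2 mg/mL (adjusted p = 5.56e-10, edgeR). CA9 had 9.26, 13.1 and 10.2 CPM at 2 mg/mL, against 13.5, 15.01 and 16.3 CPM, and fell by 0.45 ± 0.15 (adjusted p = 0.0113, edgeR). That CA9 call was lost with library-size scaling (-0.25, adjusted p = 0.166), without untreated library 3 (-0.38, 0.0615) and without CKI library 1 (-0.35, 0.0814). EPAS1 rose by 0.55 ± 0.10 at 2 mg/mL (5.28e-06), whereas HIF1A had a log2 fold change of -0.02 ± 0.15 and was not called.

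Set against each other, the CKI doses differed in 22 of the 40 genes, 6 higher and 16 lower at 2 mg/mL than at 1 mg/mL, against 32.7% of all genes called. With library-size scaling, which moved the median of all genes by 0.12, the split was 9 higher and 11 lower. ADM was 1.40 ± 0.14 higher at 2 mg/mL on the log2 scale (adjusted p = 2.44e-10, edgeR) and MIR210HG 1.25 ± 0.27 lower (0.00037). Of the 17 enzymes, 10 were lower and 0 higher, against 17.6% of all genes called lower and 15.1% called higher. ANGPTL4 and HK2 were not called between the doses.

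**Figure D3:**
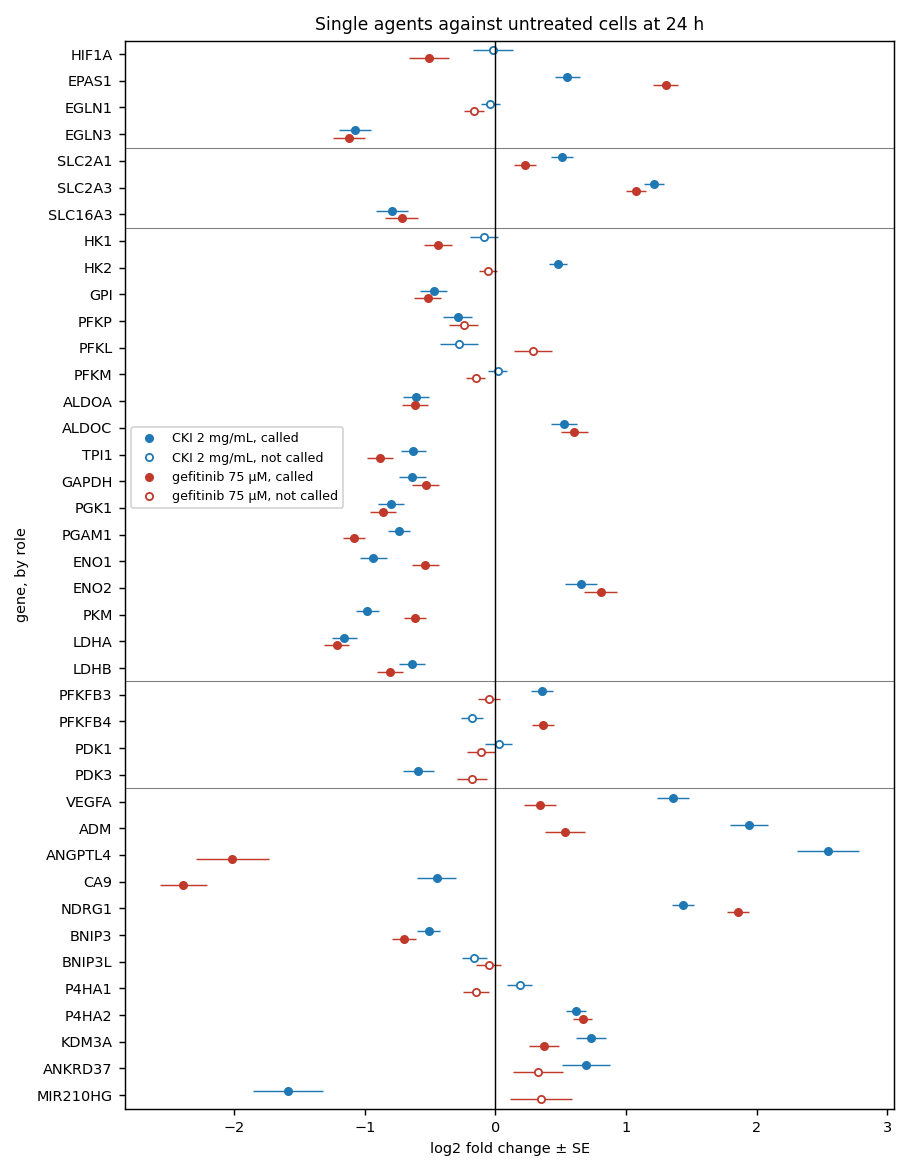
Log2 fold change with its SE for each of the 40 genes under CKI 2 mg/mL (blue) and gefitinib 75 µM (red) against the same untreated libraries at 24 h, with filled points for called genes. Most glycolytic enzymes lie left of zero under both agents, and ANGPTL4 lies at 2.55 for CKI and at -2.02 for gefitinib.

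Both agents were compared with the same untreated libraries, so their values are set side by side only. ANGPTL4 changed by 2.55 under CKI 2 mg/mL and by -2.02 under gefitinib 75 µM on the log2 scale. MIR210HG was at -1.59 under CKI and 0.35 under gefitinib, the second not called, and ADM at 1.94 under CKI and 0.53 under gefitinib. CA9 was at -0.45 under CKI and -2.39 under gefitinib, and HK2 at 0.48 under CKI and -0.06 under gefitinib, the last not called. Among other hypoxia-induced genes, CKI 2 mg/mL raised 9 and lowered 11 of 28, against 24.1% of all genes called higher and 27.1% called lower, with STC2 up by 1.60 and HILPDA, a lipid droplet protein, down by 0.79. PDK4, a sister of PDK1 that fasting and fatty acids induce, rose by 2.42 under CKI 2 mg/mL and fell by 1.38 under gefitinib 75 µM, at group means of 4.46 and 0.315 CPM, against 0.823 CPM in untreated cells at 24 h. Its mean under gefitinib 50 µM was 0.555 CPM, and such low values rest on few counts. TXNIP and ARRDC4, arrestin-related genes that restrain glucose uptake, rose by 0.77 and 1.44 under CKI 2 mg/mL.

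YFSJ alone left most genes uncalled, the glycolytic enzymes included, and raised a small set of the 40 genes. At 5 mg/mL 8 of the 40 genes rose and 1 fell, and at 2.5 mg/mL 7 rose and 0 fell, against 6.48% of all genes called at 5 mg/mL (4.28% higher, 2.2% lower) and 2.93% at 2.5 mg/mL (2.01% higher, 0.918% lower). At 5 mg/mL VEGFA had 171, 148 and 160 CPM, against 84.5, 77.7 and 85.9 CPM in untreated cells at 24 h, with no overlap, and rose by 0.95 ± 0.12 on the log2 scale (adjusted p = 4.66e-07, edgeR). NDRG1 had 185, 173 and 186 CPM, against 126, 100 and 113 CPM, and rose by 0.68 ± 0.08 (adjusted p = 1.67e-07, edgeR). ANGPTL4 had 61.1, 43.7 and 50.7 CPM, against 19.3, 23.1 and 24.6 CPM, and rose by 1.22 ± 0.24 (adjusted p = 0.00114, edgeR). PFKFB3, a sister of PFKFB4 that drives glycolysis in dividing cells, rose by 0.46 ± 0.09 (adjusted p = 0.000446, edgeR). SLC2A1, SLC2A3 and HK2 rose by 0.34, 0.30 and 0.26. The SLC2A1 call was lost without YFSJ library 1 (adjusted p = 0.12, edgeR) or untreated library 1 or 2 (0.0529 and 0.0942). The SLC2A3 call was lost without untreated library 2 or 3 (0.078 and 0.0604), and the HK2 call without YFSJ library 3 (0.061) or untreated library 3 (0.0761). PFKM, a phosphofructokinase, rose by 0.23 and BNIP3L, a mitophagy gene related to BNIP3, fell by 0.30, with calls lost with the GC correction (adjusted p = 0.0873 and 0.143, edgeR) and in fits without any 1 of most of the 6 libraries, such as untreated library 1 (0.11 and 0.212).

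At 2.5 mg/mL the same direction held for VEGFA (0.83 ± 0.12, adjusted p = 1.81e-05, edgeR) and NDRG1 (0.67 ± 0.08, 4.23e-07). All 3 libraries of that group carry ALB reads, and a fit with a term for the ALB-bearing libraries kept 2 of the 7 calls. Over all genes, 48 were called with the term and 463 without it. The term was estimated only in other groups. ANGPTL4 then had a log2 fold change of 1.13 with an adjusted p of 0.161, against 0.86 with 0.0376 in the fit without the term. Its call was also lost without YFSJ library 1 or 3 (adjusted p = 0.161 and 0.0972, edgeR) or any of the untreated libraries 1, 2 and 3 (0.147, 0.118 and 0.0728). Of the enzymes, 15 of 17 were uncalled at 5 mg/mL and 16 at 2.5 mg/mL. The called enzymes made up 11.8% and 5.88% of the 17, against 6.48% and 2.93% of all genes called. LDHA had 2432, 2587 and 2597 CPM at 5 mg/mL, against 2896, 2567 and 2660 CPM in untreated cells at 24 h, groups that overlap. Summed enzyme transcripts were 2.50% ± 0.17 of scaled counts at 5 mg/mL and 2.46% ± 0.14 in untreated cells (SD, n = 3 each). Between the YFSJ doses 0 of the 40 genes were called by edgeR (0.374% of all genes), with 1 at an unadjusted p under 0.05 (PFKFB4, 0.0455), and DESeq2 gave 0.

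When CKI was added to gefitinib, ANGPTL4 and MIR210HG had the largest changes among the 40 genes in each of the 4 dose pairs, ANGPTL4 upward and MIR210HG downward. Of the 40 genes, 19 were called for CKI 2 mg/mL with gefitinib 75 µM against gefitinib 75 µM alone (11 higher, 8 lower), against 58.2% of all genes (28.8% higher, 29.4% lower). The count was 19 for CKI 2 mg/mL at 50 µM (9 higher, 10 lower, 53.6% of all genes), 20 for CKI 1 mg/mL at 75 µM (3 higher, 17 lower, 34.6%) and 21 for CKI 1 mg/mL at 50 µM (5 higher, 16 lower, 31.8%). Library-size scaling moved the median of all genes by 0.10 to 0.13 in the last 3 comparisons and gave 14 higher and 9 lower, 6 and 13, and 7 and 12. The RNR2 share was 1.39% to 1.56% with CKI 2 mg/mL and gefitinib 75 µM and 0.674% to 0.886% with gefitinib 75 µM alone, and its part was not tested.

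ANGPTL4 had 108, 112 and 122 CPM under CKI 2 mg/mL with gefitinib 75 µM, against 6.35, 5.52 and 4.67 CPM under gefitinib 75 µM alone. It was 4.37 ± 0.28 higher on the log2 scale (adjusted p = 2.55e-15, edgeR), or 20.6-fold. At 50 µM with CKI 2 mg/mL it had 70.2, 77.9 and 62.9 CPM, against 5.19, 4.68 and 3.97 CPM, and was 3.94 ± 0.28 higher (5.89e-14). With CKI 1 mg/mL the rises were 2.76 ± 0.27 at 75 µM (7.1e-10) and 2.97 ± 0.28 at 50 µM (2.8e-10). In all 4 pairs every combination library was above every gefitinib library.

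CA9 had 11.98, 13.1 and 14.1 CPM under CKI 2 mg/mL with gefitinib 75 µM, against 3.14, 2.50 and 2.88 CPM under gefitinib 75 µM alone, with no overlap. The rise was 2.20 ± 0.18 (adjusted p = 3.89e-14, edgeR), and with CKI 2 mg/mL at 50 µM it was 1.87 ± 0.18 (4.5e-12). With CKI 1 mg/mL the rise was 1.05 ± 0.19 at 75 µM (1.56e-05), and at 50 µM a log2 fold change of 0.32 ± 0.19 was not called. ADM had 54.9, 46.4 and 46.8 CPM under CKI 2 mg/mL with gefitinib 75 µM, against 12.9, 13.7 and 16.03 CPM, and rose by 1.80 ± 0.14 (adjusted p = 1.77e-14, edgeR), but with CKI 1 mg/mL at 50 µM it fell by 0.57 ± 0.15 (0.00302). VEGFA rose in all 4 pairs, by 0.62 to 1.08. ANKRD37, a small ankyrin protein gene, had 7.84, 7.85 and 7.21 CPM under CKI 2 mg/mL with gefitinib 75 µM, against 3.33, 3.49 and 4.32 CPM, and rose by 1.04 ± 0.17 (1.5e-06).

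MIR210HG had 1.10, 1.14 and 1.29 CPM under CKI 1 mg/mL with gefitinib 75 µM, against 8.10, 9.06 and 10.3 CPM under gefitinib 75 µM alone, and fell by 2.96 ± 0.29 (adjusted p = 6.14e-11, edgeR). Its fall was 2.37 ± 0.28 for CKI 2 mg/mL at 75 µM (1.09e-09), 2.51 ± 0.29 for CKI 2 mg/mL at 50 µM (1.69e-09) and 1.71 ± 0.27 for CKI 1 mg/mL at 50 µM (3.38e-06), and in no pair did the libraries overlap. NDRG1 had 257, 268 and 262 CPM under CKI 2 mg/mL with gefitinib 75 µM, against 401, 399 and 430 CPM, and fell by 0.64 ± 0.08 (5.68e-09), with falls of 0.52 to 0.72 in the other pairs. EPAS1 fell by 0.74 ± 0.10 in that pair (8.72e-09) and by 0.49 to 0.73 in the other pairs. ALDOC, PFKFB4 and PDK3, a pyruvate dehydrogenase kinase, also fell in all 4 pairs.

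For the enzymes, CKI 1 mg/mL added to gefitinib lowered 7 of 17 at either gefitinib dose, against 17.3% of all genes called lower at 75 µM and 16.2% at 50 µM, with LDHA down by 0.56 ± 0.10 at 75 µM (9.43e-06) and by 0.37 ± 0.10 at 50 µM (0.00216). CKI 2 mg/mL lowered 2 and raised 3 of 17 at 75 µM and lowered 4 and raised 2 at 50 µM, against 29.4% and 27.1% of all genes called lower, and LDHA was not called in either pair with CKI 2 mg/mL. Summed enzyme transcripts were 1.55% ± 0.02 of scaled counts with CKI 2 mg/mL and 1.25% ± 0.09 with CKI 1 mg/mL, both with gefitinib 75 µM, against 1.59% ± 0.04 with gefitinib 75 µM alone (SD, n = 3 each). CKI 2 mg/mL at 75 µM raised HK1 by 0.30, TPI1 by 0.29 and PGAM1 by 0.30. With the ALB term, which was estimated only in other groups, HK1 and TPI1 were no longer called (adjusted p = 0.336 and 0.194, edgeR). PDK4 rose by 5.24 in that pair, to a mean of 12.03 CPM, against 0.315 CPM under gefitinib 75 µM alone. In the libraries of gefitinib 75 µM alone 3 counts equal 0.169 to 0.178 CPM, so the size of this rise is imprecise.

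**Figure D4:**
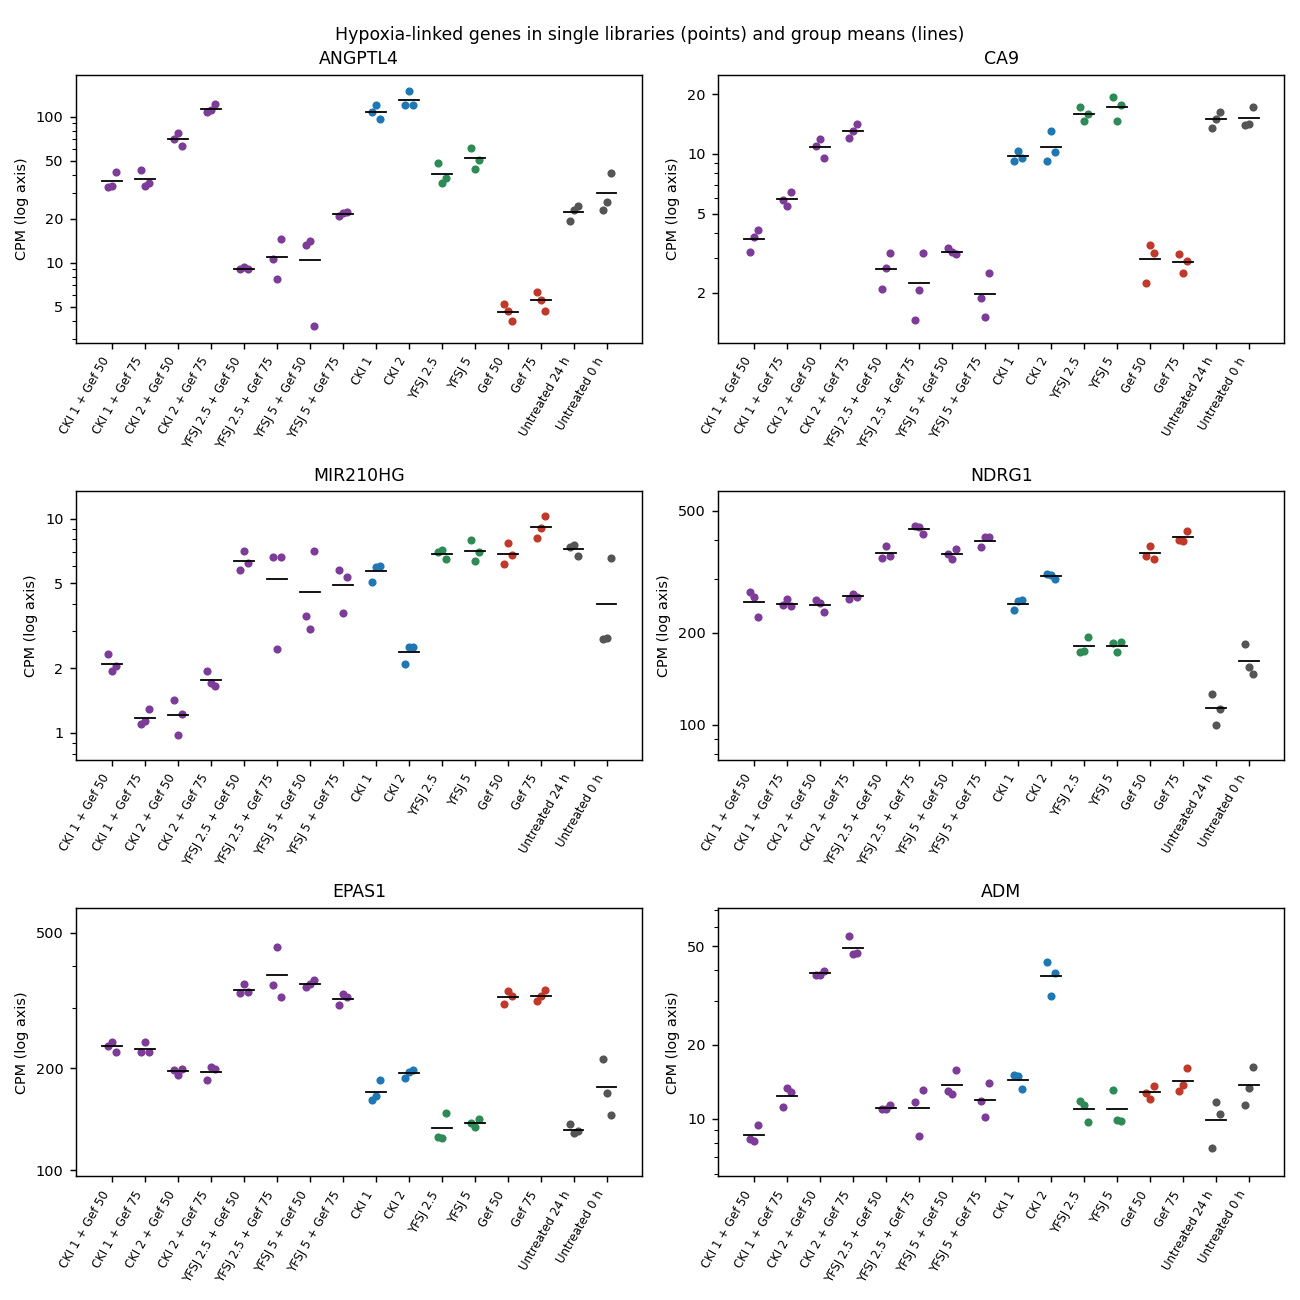
CPM (log axis) of ANGPTL4, CA9, MIR210HG, NDRG1, EPAS1 and ADM in each library (points) and as group means (lines) for all 16 groups, with combinations in purple, CKI in blue, YFSJ in green, gefitinib in red and untreated cells in grey. ANGPTL4 and CA9 are low under gefitinib and higher where CKI 2 mg/mL was added, and MIR210HG is lowest in the CKI combinations.

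Whether CKI and gefitinib acted as the sum of their single effects was tested as an interaction, the change under both agents minus both single changes, averaged over 4 dose pairs. It was called for 27 of the 40 genes, 14 above the sum and 13 below it, against 39.5% of all genes (20% above, 19.5% below). NDRG1 lay 1.90 ± 0.09 below the sum on the log2 scale (adjusted p = 8.51e-22, edgeR), and it rose under each agent alone and fell when CKI was added to gefitinib. ALDOC lay 1.21 ± 0.11 below it (9.57e-13), EPAS1 1.08 ± 0.10 (6.46e-12) and SLC2A3 0.94 ± 0.08 (6.58e-13). MIR210HG lay 1.43 ± 0.28 below it (5.18e-05). CA9 lay 1.89 ± 0.17 above the sum (2.09e-12) and ANGPTL4 1.09 ± 0.27 above it (0.00129). Of the enzymes 9 lay above the sum, LDHA by 0.64 ± 0.10 (1.42e-06), and 3 below it (HK2, ALDOC, ENO2). The calls of ALDOA (0.26) and ENO1 (0.30) were lost with the ALB term (adjusted p = 0.0795 and 0.107, edgeR) and without untreated library 3 at 24 h (0.179 and 0.124). HIF1A was not called, at 0.01 ± 0.16. In the pair CKI 1 mg/mL with gefitinib 50 µM, whose groups hold no ALB-bearing library, 12 of the 40 genes were called, against 2798 of all 15789 genes in the same fit, and ANGPTL4 (0.69, adjusted p = 0.199) and LDHA (0.20, 0.318) were not.

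**Figure D5:**
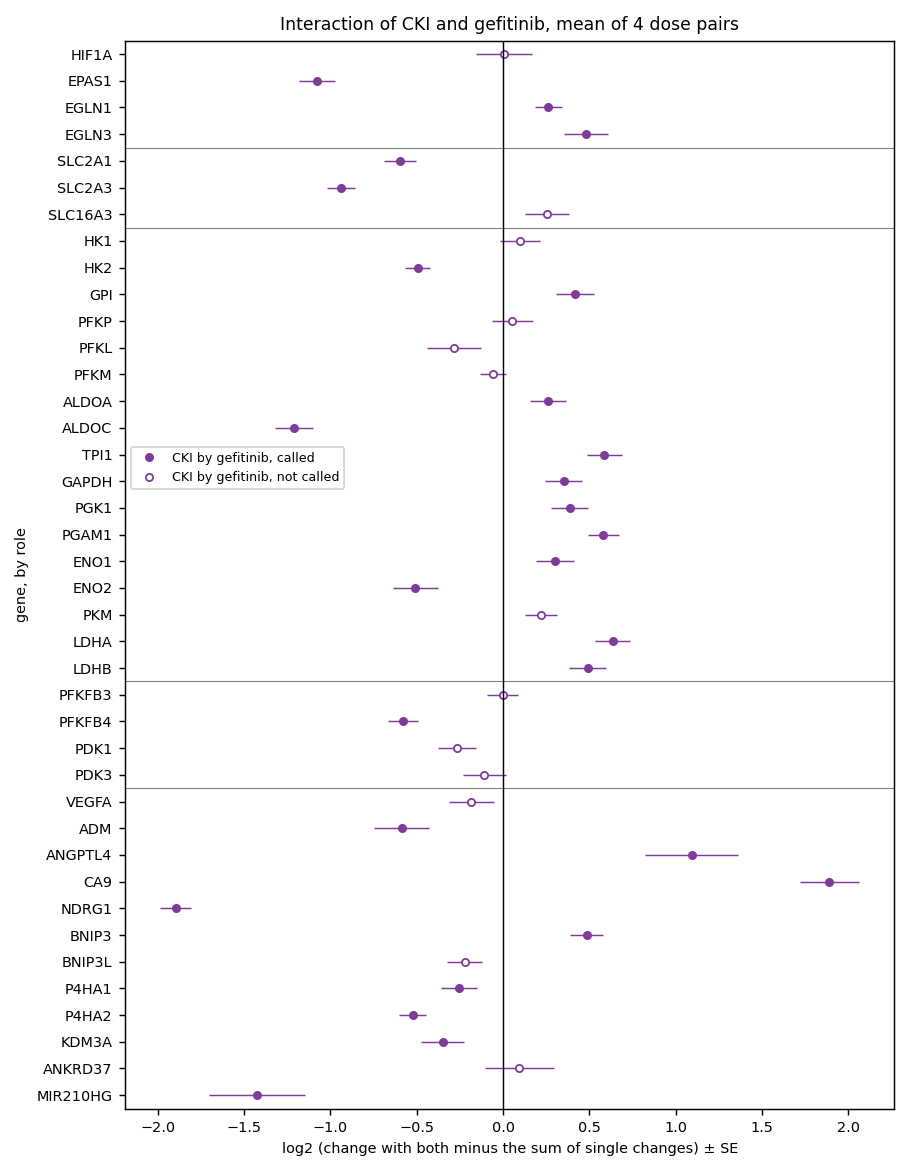
Interaction of CKI and gefitinib for each of the 40 genes, as log2 of the change under both agents minus the sum of the single changes, averaged over 4 dose pairs, with its SE and filled points for called genes. NDRG1 at -1.90 and CA9 at 1.89 lie furthest from zero.

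Adding YFSJ to gefitinib changed few of the 40 genes. With YFSJ 5 mg/mL at 75 µM 1 rose and 3 fell, against 3.46% of all genes called (1.79% higher, 1.67% lower). At 50 µM 1 rose and 2 fell, against 0.937% of all genes (0.532% higher, 0.405% lower). With YFSJ 2.5 mg/mL at 75 µM 0 rose and 1 fell, against 1.83% of all genes (0.994% higher, 0.836% lower). With YFSJ 2.5 mg/mL at 50 µM 0 were called by edgeR and by DESeq2, against 0.0887% of all genes by edgeR (0.0633% higher, 0.0253% lower), and 7 had an unadjusted p under 0.05. ANGPTL4 had 20.9, 21.7 and 22.3 CPM under YFSJ 5 mg/mL with gefitinib 75 µM, against 6.35, 5.52 and 4.67 CPM under gefitinib 75 µM alone. The groups did not overlap, and the rise was 1.97 ± 0.28 on the log2 scale (adjusted p = 2.38e-05, edgeR). ALDOC fell by 0.46 ± 0.10 (0.0038), PFKFB4 by 0.32 ± 0.08 (0.0154) and MIR210HG by 0.89 ± 0.25 (0.0296). The PFKFB4 and MIR210HG calls were lost without library 2 of the combination (adjusted p = 0.158 and 0.193, edgeR) or without gefitinib library 2 (0.119 and 0.0706), that of PFKFB4 without gefitinib library 1 (0.0523), and that of MIR210HG without gefitinib library 3 (0.152) or library 3 of the combination (0.0573).

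Under YFSJ 5 mg/mL with gefitinib 50 µM, ANGPTL4 had 13.2, 14.2 and 3.68 CPM, against 5.19, 4.68 and 3.97 CPM under gefitinib 50 µM alone, so the groups overlapped through library 3. In that library ALDOC was also apart, with 68.0 CPM against 47.2 and 45.0 CPM in libraries 1 and 2, and MIR210HG had 7.08 CPM against 3.53 and 3.04 CPM. Under gefitinib 50 µM alone ALDOC had 75.8, 81.5 and 75.7 CPM and MIR210HG 6.12, 7.72 and 6.78 CPM, so for ANGPTL4 and MIR210HG library 3 lay nearer to gefitinib alone than to its companions, and for ALDOC between them. ANGPTL4 rose by 1.18 ± 0.30 (adjusted p = 0.0411, edgeR) and without library 3 by 1.58 (7.46e-06). ALDOC fell by 0.54 ± 0.10 (0.00246) and without library 3 by 0.75 (3.98e-07). Without library 3, 5 of the 40 genes were called, against 3 with it, and without library 1 or library 2 none of the 40 was, ANGPTL4 having adjusted p values of 0.395 and 0.567 (edgeR). The ANGPTL4 call was also lost without gefitinib library 1, 2 or 3 (0.116, 0.141 and 0.139). PFKFB4 fell by 0.35 in this pair and by 0.37 under YFSJ 2.5 mg/mL with gefitinib 75 µM, and the second call was lost with the GC correction (adjusted p = 0.0535, edgeR) and without gefitinib library 2 (0.0862) or library 2 of the combination (0.186), which has the high RNR2 share.

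The interaction of YFSJ and gefitinib was called for 6 of the 40 genes, all below the sum, against 1.7% of all genes (1.05% below it). All libraries of YFSJ 2.5 mg/mL alone carry ALB reads, and with the ALB term 5 of the 40 genes were called. Over all genes, 168 were called with the term and 268 without it. On the pairs with YFSJ 5 mg/mL alone, where no library carries them, 4 of the 40 were called, against 285 of all genes. SLC2A3 and PFKFB4 were not called there (adjusted p = 0.0574 and 0.08, edgeR). VEGFA lay 0.74 ± 0.13 below the sum (adjusted p = 0.000553, edgeR) and NDRG1 0.66 ± 0.09 (4.5e-06). ALDOC, SLC2A1, PFKFB4 and SLC2A3 lay 0.51, 0.49, 0.36 and 0.35 below it. Without untreated library 2 at 24 h the ALDOC, SLC2A3 and PFKFB4 calls were lost (adjusted p = 0.0842, 0.0909 and 0.0821, edgeR), and without untreated library 3 those of SLC2A3 and PFKFB4 (0.0602 and 0.0658).

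In untreated cells, 24 h of culture came with lower levels of 15 of the 40 genes and a higher level of 1. Of all genes, 25.2% were called, 14.4% lower and 10.8% higher. HK1, the general hexokinase, had 239, 216 and 259 CPM at 24 h, against 436, 380 and 277 CPM at 0 h, and fell by 0.61 ± 0.11 (adjusted p = 9.11e-05, edgeR). NDRG1 had 126, 100 and 113 CPM at 24 h, against 183, 154 and 147 CPM at 0 h, and fell by 0.51 ± 0.08 (2.54e-05). MIR210HG had 7.40, 7.54 and 6.67 CPM at 24 h, against 2.74, 2.78 and 6.53 CPM at 0 h, and rose by 0.81 ± 0.26 (0.0169). Libraries 1 and 2 at 0 h, which have the high RNR2 share, sat apart from library 3 for HK1, MIR210HG and ENO1, the last with 6015, 6281 and 4049 CPM at 0 h. With library 3 as the only library at 0 h, assumed to vary like the libraries of the other groups, 1 of these 16 calls was kept, a fit with less power because 1 library stands for the group. HK1 then had a log2 fold change of -0.24 (adjusted p = 0.629, edgeR) and MIR210HG 0.12 (0.966). In a fit of only the 6 libraries compared, 0 of the 40 genes were called, HK1 having an adjusted p of 0.0894 (edgeR). Over all genes that fit called 93, against 3980 in the fit of all 48 libraries. Without library 1 at 0 h, 7 genes were called and MIR210HG was not (adjusted p = 0.178, edgeR), and without library 2 at 0 h or at 24 h it was not either (0.12 and 0.0529). Without library 3 at 0 h, 23 genes were called. Library-size scaling gave 2 higher and 9 lower.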

How the data were processed

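RNA of the 48 libraries was sequenced as unstranded read pairs, and the deposited table holds raw counts per gene symbol, made by the authors. The submitters' processing notes name Trim Galore 0.4.2, STAR 2.5.3a, edgeR and build hg19. The counting tool, annotation and strand setting are not given in the sources used here. The analysis ran in R 4.3.3 with edgeR 4.0.16. The filter filterByExpr (minimum count 10, minimum total 15) kept 15789 genes holding 99.97% of counts, TMM factors scaled the libraries, and a robust quasi-likelihood model gave each group its own mean, leaving 32 residual degrees of freedom. Each comparison was a two-sided contrast, adjusted by Benjamini-Hochberg over all genes tested. The SE is the size of the log2 fold change divided by the square root of F. CPM (the usual depth-scaled unit) are counts divided by TMM-scaled totals, and library totals ran between 16428398 and 26264162 counts. The GC correction used the GC share of reference transcripts, found for 15232 genes (96.5%), and levels per length used 1 reference transcript per gene.

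Full values could be given to at most 8 called genes per comparison, taken by size of change among genes averaging 5 CPM or more in the group where they were higher, and HIF1A, EPAS1, VEGFA, CA9, SLC2A1, HK2, LDHA, PDK1 and NDRG1 could be given values in any comparison, though not all were. ENO2, ALDOC and the sister genes named with them were added after their values were seen. The 40 genes and the lists of other pathway genes were chosen with earlier results of these data known. Alternatives were relative log expression factors, library-size scaling, DESeq2 1.42.0, no filter, the replicate number as a block, a term marking libraries whose ALB count exceeded 1000, the GC correction, subsets of libraries and 48 fits with 1 library left out. The interaction of CKI 1 mg/mL with gefitinib 50 µM alone and that of YFSJ 5 mg/mL alone were chosen after seeing the data. The p-values measure the spread between libraries, and nothing beyond the submitters' word says that these are separate cultures.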

Additional observations from a re-analysis of the deposited data

Results flagged for a closer look

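The effect of CKI on 27 of the 40 genes differed between cells with and without gefitinib, against 39.5% of all genes. The test was edgeR's quasi-likelihood test of the interaction averaged over 4 dose pairs, at an adjusted p under 0.05. Values are log2 of the change under both agents minus the sum of the single changes. Above the sum were CA9 (1.89), ANGPTL4 (1.09), LDHA (0.64), TPI1 (0.59), PGAM1 (0.58), LDHB (0.49), BNIP3 (0.49), EGLN3 (0.48), GPI (0.42), PGK1 (0.39), GAPDH (0.35), ENO1 (0.30), EGLN1 (0.26) and ALDOA (0.26). Below the sum were NDRG1 (-1.90), MIR210HG (-1.43), ALDOC (-1.21), EPAS1 (-1.08), SLC2A3 (-0.94), SLC2A1 (-0.60), ADM (-0.59), PFKFB4 (-0.58), P4HA2 (-0.52), ENO2 (-0.51), HK2 (-0.50), KDM3A (-0.35) and P4HA1 (-0.25). The groups with both agents hold 7 of the 10 libraries with ALB reads, whose part in these values was tested only through the term for those libraries and the pair without them. With the term the ALDOA and ENO1 calls were lost. In the pair without those libraries, 11 of the 27 calls were kept and 13 were lost, those of ANGPTL4 and LDHA among them. The other 3, EGLN3, ALDOA and ENO1, changed sign there without being called.

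The effect of YFSJ differed between cells with and without gefitinib for 6 genes by the same test, all below the sum. These were VEGFA (-0.74), NDRG1 (-0.66), ALDOC (-0.51), SLC2A1 (-0.49), PFKFB4 (-0.36) and SLC2A3 (-0.35).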

How the results depend on the processing

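Of 287 calls of a gene in a comparison, 213 were kept in every fit with 1 library left out, and none of the 287 changed sign there. Calls lost numbered 3 with relative log expression factors, 33 with library-size scaling, 30 with no filter, 18 with the ALB term, 17 with the GC correction and 2 with DESeq2. The causes were not tested. Most counts of called genes stayed within 1.5 times the count reported. Exceptions at 24 h against 0 h were 0 with only the 6 libraries compared and 1 with library 3 as the only 0 h library, against 16. For YFSJ 2.5 mg/mL the ALB term left 2 of 7, and for YFSJ 5 mg/mL the 6 libraries alone gave 4, against 9. Over all genes the ALB term gave 48 for YFSJ 2.5 mg/mL, not 463. The 6 libraries alone gave 93 of all genes for 24 h against 0 h, not 3980, and 823 for YFSJ 5 mg/mL, not 1023. With no filter, YFSJ 5 mg/mL gave 1 with gefitinib 50 µM, against 3, and 2 with 75 µM, against 4. YFSJ 2.5 mg/mL with gefitinib 75 µM gave 2 with the GC correction and 4 with DESeq2, against 1. The CKI interaction in the pair CKI 1 mg/mL with gefitinib 50 µM gave 12, against 27, and EGLN3 (-0.10), ALDOA (-0.030) and ENO1 (-0.043) changed sign there without being called. With 1 library left out, counts ran between 7 and 23 for 24 h against 0 h, 3 and 7 for YFSJ 2.5 mg/mL, 5 and 9 for YFSJ 5 mg/mL, 0 and 1 for YFSJ 2.5 mg/mL with gefitinib 50 µM, 0 and 5 for YFSJ 5 mg/mL with 50 µM and for YFSJ 2.5 mg/mL with 75 µM, 2 and 4 for YFSJ 5 mg/mL with 75 µM, and 3 and 7 for the YFSJ interaction. The replicate number did not pair the samples, since correlations of same-numbered deviations ran from -0.283 to 0.285 and all passed 0.1 in 1 of 18 comparisons. As a block it lost 4 calls, with 6 for YFSJ 2.5 mg/mL, 7 for YFSJ 5 mg/mL, 2 for YFSJ 5 mg/mL with gefitinib 50 µM and 28 for the CKI interaction. Low counts, down to 24 for MIR210HG, limit the precision of that gene, CA9 and ANKRD37.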
